A study of Mus musculus with 6 samples.

Results

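The mitochondrial respiratory chain was examined here through the genes of its nuclear-encoded subunits in regenerating mouse liver. A gene was a member where its symbol in the platform annotation begins with Nduf, Uqcr, Cox4, Cox5, Cox6, Cox7, Cox8 or Atp5, or is Sdha, Sdhb, Sdhc or Sdhd. Each gene was read from its brightest single-gene probe set, which had to exceed a log2 value of 4 in at least 3 of the 6 arrays. Of 90 such genes with a single-gene probe set, 78 passed, among 8554 genes tested in all, and each of the 78 exceeded 4 in all 6 arrays. Structural subunits made up 70 of them. The other 8 share the symbol prefixes only: Ndufaf1, Ndufaf2, Ndufaf3, Ndufaf4, Ndufaf6, Ndufaf7 and Ndufaf8 encode complex I assembly factors, and Cox7a2l encodes a protein that joins complexes into supercomplexes.

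The arrays compare 2 groups of C57BL/6 mice that all carried floxed Socs3 alleles (Socs3 fl/fl) and had all undergone partial hepatectomy, the removal of most of the liver, 18 hours before collection. Cre plus mice also had the Alb-Cre+ transgene, in which the albumin promoter drives Cre recombinase and so removes Socs3 from hepatocytes (n = 3 arrays, A, B and C). Cre minus mice were Alb-Cre- littermates with intact Socs3 (n = 3 arrays, A, B and C). Socs3 encodes a suppressor of cytokine signals that acts in a feedback loop, and whole liver was used, so other liver cells contributed RNA. No array came from an unoperated liver and no control carried Cre alone, so a difference present before surgery or a direct effect of the recombinase cannot be told apart from that of Socs3 loss in regeneration. The labels name no age or sex and do not say whether the 3 arrays of a group came from separate mice, so the p-values measure only the spread between these arrays.

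The respiratory chain sits in the inner mitochondrial membrane. Complex I takes electrons from NADH and complex II takes them from succinate, both pass them to ubiquinone, complex III hands them to cytochrome c, and complex IV gives them to oxygen. Complexes I, III and IV pump protons as they work, and the ATP synthase, complex V, uses the returning protons to make ATP. Hepatocytes are rich in mitochondria, and a regenerating liver has to supply ATP for DNA and protein synthesis from fewer cells. Most subunits are encoded in the nucleus, and several of their promoters are known to bind the factors NRF1 and GABPA.

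The targeted gene followed the labels. Socs3 had values of 9.09, 9.30 and 9.24 in the Cre minus arrays and 7.44, 6.69 and 7.47 in the Cre plus arrays on its brightest probe set, and all 3 of its probe sets were lower in each Cre plus array than in any Cre minus array. Its limma adjusted p over all genes was 0.0732. Over all genes tested, arrays correlated at 0.995 within Cre minus, at 0.987 to 0.990 within Cre plus and at 0.982 to 0.993 between groups. Hepatocyte markers had 17.27 to 17.31 in Cre minus and 17.16 to 17.30 in Cre plus as the log2 of their summed linear signal in each array. Control probe sets at the 3′ end minus those at the 5′ end, a measure of RNA quality, differed by -0.30 to -0.26 for Gapdh in Cre minus and by -0.30 to -0.22 in Cre plus.

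To describe the promoters of the members, RefSeq sequences (GRCm38.p6) were used for the 66 of 78 members with an entry. They were read from 250 bases before to 50 bases after the most upstream start of each gene. The letters GCGC, any 2 bases and GCGC again were searched on both strands. This is a loose form of the NRF1 site that leaves its middle bases open. The letters occurred in 16 of 66 member promoters (24.2%), against 14.8% of 6938 other tested genes and 6.47% of all 27025 promoters. The stretches below show such a match in capitals, with up to 45 bases on each side and ending no later than the start. For each complex, the member shown has the smallest limma p among those with a match wholly before the start. No complex III member had a match wholly before the start. Each is written 5′ to 3′ along the gene's own strand, which is the minus strand for all 4. The first base of the match lies 80 bases before the start in Ndufab1 (complex I, chr7:122101874-122101973), 79 in Sdhd (complex II, chr9:50603874-50603973), 162 in Cox6a1 (complex IV, chr5:115349066-115349165) and 50 in Atp5k (complex V, chr5:108434400-108434494).
Ndufab1: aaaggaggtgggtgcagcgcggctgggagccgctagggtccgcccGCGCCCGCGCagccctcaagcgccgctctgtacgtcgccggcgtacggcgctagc
Sdhd: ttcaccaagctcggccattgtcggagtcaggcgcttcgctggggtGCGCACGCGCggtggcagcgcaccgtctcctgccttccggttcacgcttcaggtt
Cox6a1: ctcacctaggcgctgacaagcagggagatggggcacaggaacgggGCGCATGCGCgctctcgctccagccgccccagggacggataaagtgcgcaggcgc
Atp5k: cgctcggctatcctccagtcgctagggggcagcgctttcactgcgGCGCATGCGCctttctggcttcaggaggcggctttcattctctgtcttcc

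Of the other letters searched on both strands, AAGATGGC, which YY1 is known to bind, occurred in 13.6% of member promoters and 5.22% of other tested genes. CCGGAAGT, a core bound by GABPA, occurred in 7.58% and 9.28%. TCAAGGTCA, bound by ERRA, occurred in 2 member promoters (3.03%) and in 0.202% of the others, and CCAAT occurred in 42.4% and 39.0%. The 16 members with the NRF1 letters had a median log2 difference between the genotypes of -0.12, with 15 lower in Cre plus. The 50 members without them had a median of -0.077, with 45 lower. With and without the YY1 letters the medians were -0.11 (7 of 9 lower) and -0.084 (53 of 57 lower). They were -0.089 and -0.092 for CCGGAAGT, -0.085 and -0.090 for CCAAT, and -0.13 (2 members) and -0.089 for the ERRA letters. None of these splits was tested. A match to these letters is a description of the sequence and says nothing of whether a factor was bound in these livers.

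Most members of the respiratory chain had slightly lower values in Cre plus than in Cre minus livers, and none passed the test. Of the 78, 70 were lower (89.7%) and 8 higher, beside 53.5% of all genes tested that were lower. The median log2 difference, Cre plus minus Cre minus, was -0.091, which is a value 6.12% below that of Cre minus, beside a median of -0.0087 over all genes. No member had an adjusted p under 0.05 (limma, Benjamini-Hochberg over 8554 genes), where 0.0234% of all genes passed, and the smallest adjusted p of a member was 0.179. At an unadjusted p under 0.05, 7 members were lower and 0 were higher. That is 8.97% of the members, near the 8.21% of all genes that were lower at that p, while 6.62% of all genes were higher at it. The 3 Cre plus values lay wholly below the 3 Cre minus values in 22 members (28.2%), beside 11.9% of all genes, and wholly above them in 0, beside 9.21%. Most members have a mean above a log2 value of 10, where 188 of 1117 other genes lay wholly below and 146 wholly above. Both are larger shares than over all genes. This applies wherever the 11.9% is set beside a complex, and further counts among bright genes are given below. In whole liver, fewer cells of a type and less RNA per cell cannot be told apart.

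These counts have limits set by the number of arrays. Without Cre plus A, 62 of the 78 members were lower and the median was -0.060. Without Cre minus A, 68 were lower and the median was again -0.060. Members lower at an unadjusted p under 0.05 in limma numbered 3 without Cre plus A, 3 without Cre minus A and 14 without Cre plus B. The share of all genes at that p was not computed in these fits. The counts are therefore not a result about the members. Over all genes, 2 passed the adjusted threshold, 13 did without Cre plus B, 1 did without Cre plus A, and 0 did without any single Cre minus array. The count of lower members was 70, 72 and 70 when the arrays were shifted to a common median, quantile normalized, or centred on the other bright genes, and the counts by complex given below changed by at most 1. Of the 70 members that were lower, 57 were lower in every setting they were tested in and 13 were higher in at least 1.

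The size of the differences was small and bounded. The 95% interval of the difference held 0 in 71 members, and the intervals reached from -0.91 to 0.39 over all members. In 75 members the whole interval lay between -0.5 and 0.5. The median standard error of a difference was 0.068. Differences above 0.2 in size occurred in 7 members and above 0.3 in 2, Ndufa6 and Ndufaf3. Replicate SD was larger in Cre plus in 52 of 78 members. The median SD of the members was 0.060 in Cre minus and 0.077 in Cre plus. Over all genes tested it was 0.098 and 0.13, so a larger SD in Cre plus was not particular to the members.

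**Figure D1:**
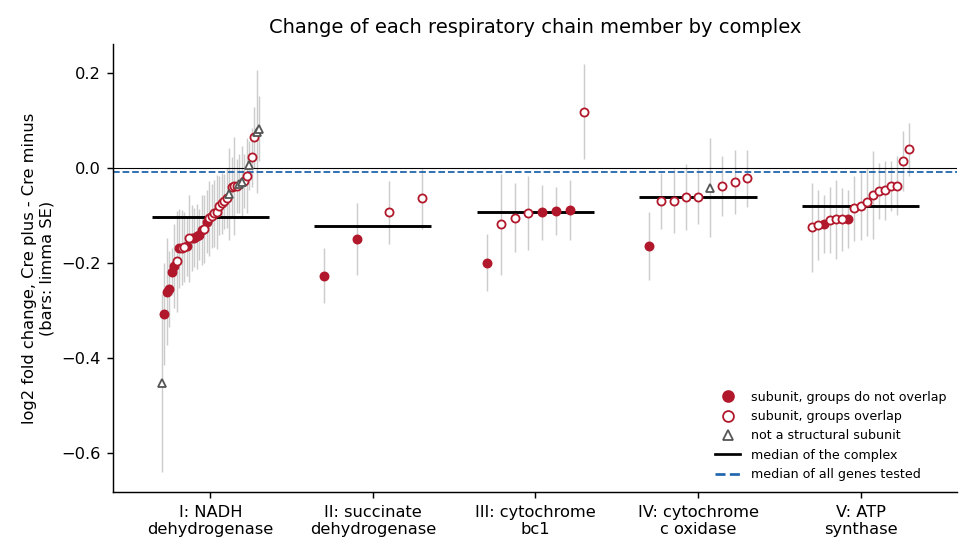
Log2 difference between Cre plus and Cre minus (vertical axis) for each of the 78 members, sorted within its complex (horizontal axis), with grey bars for limma's standard error. Filled points are subunits whose groups do not overlap, triangles are not structural subunits, black lines are the complex medians (-0.10, -0.12, -0.094, -0.060 and -0.081 for I to V) and the dashed line is the median of all genes tested (-0.0087). Most points lie below 0.

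Complex I, the NADH dehydrogenase, had 40 members by prefix, of which 35 had lower values in Cre plus, with a median log2 difference of -0.10, and in 13 (32.5%) the groups did not overlap, beside the 11.9% of all genes given above. Without the 7 assembly factors among them, 31 of 33 were lower, with a median of -0.13. Without Cre plus A, 31 of the 40 were lower, with a median of -0.079. None passed the test. The core subunits, which carry the electrons from NADH to ubiquinone, had lower values in 6 of 6, with a median of -0.15, and 3 of these did not overlap between groups.

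Ndufs1, the iron-sulphur subunit that receives electrons near the NADH site, had log2 values of 9.84, 9.84 and 9.83 in the Cre minus arrays and 9.63, 9.64 and 9.58 in the Cre plus arrays. The Cre minus values were almost equal, and all Cre plus values lay below them. The difference was -0.22 ± 0.050 (± limma's standard error here and below, 95% interval -0.34 to -0.095), which puts Cre plus at 86.0% of the Cre minus level, with a limma adjusted p of 0.179, the smallest of any member. Ndufs7, which holds the iron-sulphur cluster next to the ubiquinone site, had 11.02, 10.86 and 10.83 in the Cre minus arrays and 10.60, 10.75 and 10.59 in the Cre plus arrays. Its groups did not overlap either, and Cre plus B came closest to the Cre minus range. Its difference was -0.25 ± 0.081 (adjusted p 0.256), and its second probe set gave -0.36. The other core subunits, Ndufs3, Ndufs8, Ndufv1 and Ndufv2, had differences of -0.079, -0.15, -0.075 and -0.14. Ndufv1, which binds NADH itself, had 11.20, 11.12 and 11.08 in the Cre minus arrays and 11.06, 11.12 and 10.99 in the Cre plus arrays, and these groups overlapped.

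The accessory subunits listed with the NADH-binding module had lower values in 6 of 6, with a median of -0.15. In 4 of these the groups did not overlap, beside 11.9% of all genes. Ndufa6, a protein that anchors an acyl carrier protein in the matrix arm, had 10.45, 10.23 and 10.22 in the Cre minus arrays and 9.83, 10.14 and 10.01 in the Cre plus arrays. Cre minus A was the highest and Cre plus A the lowest of the 6 arrays, and the groups did not overlap. The difference of -0.31 ± 0.11, which puts Cre plus at 80.8% of the Cre minus level, had the largest size of any subunit (adjusted p 0.287). Ndufa7 had 11.59, 11.56 and 11.59 in the Cre minus arrays and 11.39, 11.53 and 11.39 in the Cre plus arrays, a difference of -0.15 ± 0.061 (adjusted p 0.347). Cre plus B lay close under the Cre minus values, and the other Cre plus arrays lay further down. Ndufa2, Ndufa12, Ndufs4 and Ndufv3 had differences of -0.17, -0.064, -0.092 and -0.15. Dimmer probe sets pointed the other way in both Ndufa12, with 0.016 and 0.0061, and Ndufs4, with 0.075.

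Accessory subunits of the membrane arm, which hold the proton-pumping part together, had lower values in 16 of 17, with a median of -0.11. Without Cre plus A this was 12 of 17 with a median of -0.051. Ndufa3 had 12.24, 12.22 and 12.23 in the Cre minus arrays and 12.07, 12.15 and 11.98 in the Cre plus arrays, without overlap, and a difference of -0.16 ± 0.063 (adjusted p 0.317). Ndufb10 had 11.10, 10.90 and 10.87 in the Cre minus arrays and 10.50, 10.76 and 10.83 in the Cre plus arrays. Its groups did not overlap, but Cre plus C was close to Cre minus C, and Cre plus A was far below the rest. The difference was -0.26 ± 0.11 (adjusted p 0.360). Ndufa8 had a difference of -0.21 ± 0.088 without overlap, and Ndufb9 one of -0.17 ± 0.073 with overlap. Ndufb6 was the exception, with 11.62, 11.73 and 11.61 in the Cre minus arrays and 11.65, 11.78 and 11.73 in the Cre plus arrays, which overlapped, and a difference of 0.064 ± 0.065. Its second probe set gave -0.10. The 12 membrane arm subunits not given here singly had differences from -0.20 for Ndufc1 to -0.016 for Ndufc2, all below 0.

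Ndufab1, the mitochondrial acyl carrier protein that is both a complex I subunit and a carrier in fatty acid synthesis, had 11.95, 11.96 and 11.96 in the Cre minus arrays and 11.82, 11.77 and 11.87 in the Cre plus arrays. The Cre minus values were nearly identical and no Cre plus value reached them. The difference was -0.14 ± 0.054 (adjusted p 0.318). This probe set is of a kind whose probes match more than 1 transcript, and the other Ndufab1 probe set, at a much lower signal, gave 0.017. Ndufa5 and Ndufa9, which sit in the arm that reaches ubiquinone, had differences of -0.11 and 0.023. Ndufa4, named for complex I but now assigned to complex IV, had -0.070 (groups overlapping).

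The 7 complex I assembly factors with an Ndufaf symbol and Cox7a2l had a median difference of -0.031, with 5 of 8 lower and no group separation. With single arrays left out, this median ran from -0.029 to 0.0038, the latter with 4 of 8 lower without Cre plus B. Ndufaf3, an early assembly factor, had 7.35, 6.90 and 6.76 in the Cre minus arrays and 6.58, 6.76 and 6.31 in the Cre plus arrays. These groups overlapped, with Cre minus A far above the rest, and the difference was -0.45 ± 0.19 (adjusted p 0.344). Ndufaf7, which methylates a core subunit during assembly, had 7.09, 7.07 and 6.96 in the Cre minus arrays and 7.18, 7.15 and 7.04 in the Cre plus arrays, with overlap, and the highest difference of complex I at 0.083 ± 0.068. Ndufaf4 gave 0.077 on its brightest probe set and -0.18 on the other, and Ndufaf1, Ndufaf2, Ndufaf6 and Ndufaf8 gave -0.033, -0.054, 0.0055 and -0.028.

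**Figure D2:**
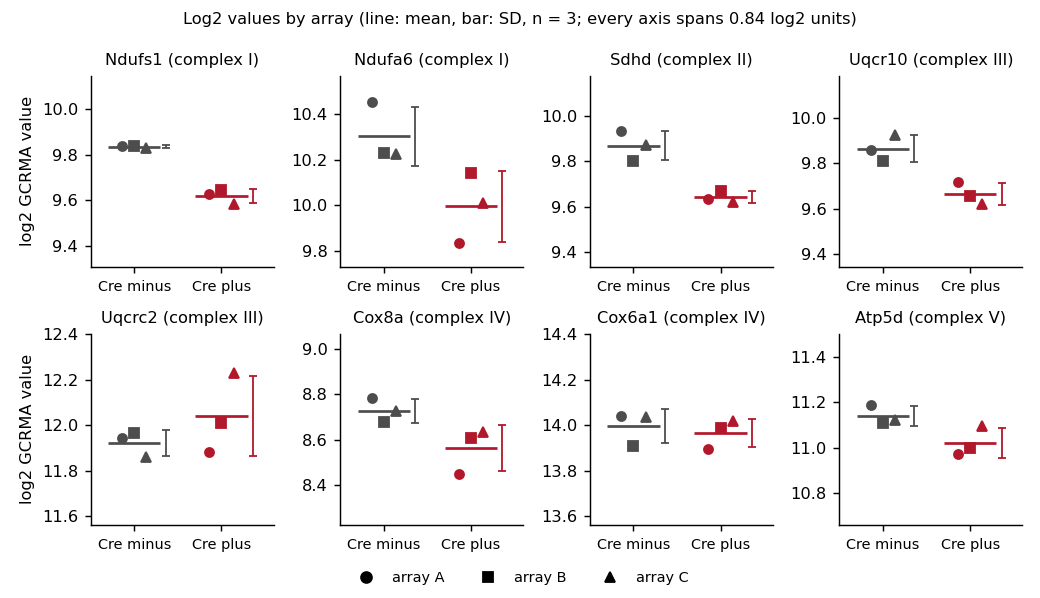
Log2 values of 8 members in each of the 6 arrays, as points by array letter (circle A, square B, triangle C) with the group mean as a line and the SD as a bar (n = 3 arrays per group), on axes of equal span. The Cre plus points of Ndufs1, Ndufa6, Sdhd, Uqcr10, Cox8a and Atp5d lie below all Cre minus points, while those of Uqcrc2 and Cox6a1 overlap with them.

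Complex II, the succinate dehydrogenase, also works in the tricarboxylic acid cycle. All 4 of its members had lower values, with a median of -0.12 (and -0.077 without Cre plus A), and none passed the test. In 2 (50.0%) the groups did not overlap, beside 11.9% of all genes. Sdhd, a membrane anchor whose promoter stretch is shown above, had 9.93, 9.80 and 9.87 in the Cre minus arrays and 9.64, 9.67 and 9.62 in the Cre plus arrays. Every Cre plus value was below every Cre minus value. The difference was -0.23 ± 0.058 (95% interval -0.37 to -0.084), which puts Cre plus at 85.4% of the Cre minus level, with an adjusted p of 0.196. Its second probe set showed no such separation and gave -0.0026. Sdha, the flavoprotein that oxidises succinate, had 11.16, 11.13 and 11.14 in the Cre minus arrays and 10.88, 11.12 and 10.98 in the Cre plus arrays. Its groups did not overlap, although Cre plus B lay just under the Cre minus values, and the difference was -0.15 ± 0.076 (adjusted p 0.423). Its second probe set gave -0.025. Sdhb, the iron-sulphur subunit, had 11.22, 11.14 and 11.12 in the Cre minus arrays and 10.99, 11.06 and 11.16 in the Cre plus arrays. Sdhc, the other anchor, had 10.73, 10.69 and 10.74 in the Cre minus arrays and 10.65, 10.74 and 10.57 in the Cre plus arrays. Both overlapped, with differences of -0.093 and -0.064. With every kept probe set counted, the complex II median was -0.064.

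Complex III, cytochrome bc1, had lower values in 7 of 8 members, with a median of -0.094 (and -0.073 without Cre plus A). In 4 (50.0%) the groups did not overlap, beside 11.9% of all genes. None passed the test. Uqcr10, a small subunit next to cytochrome c1, had 9.86, 9.81 and 9.93 in the Cre minus arrays and 9.72, 9.66 and 9.62 in the Cre plus arrays. The groups did not overlap, and the difference was -0.20 ± 0.060 (95% interval -0.35 to -0.052), with an adjusted p of 0.240. Its 2 dimmer probe sets had larger differences of -0.37 and -0.63 in the same direction. Uqcrh, the hinge protein, had 12.28, 12.23 and 12.22 in the Cre minus arrays and 12.17, 12.15 and 12.15 in the Cre plus arrays. Uqcrb, which borders the ubiquinone site, had 13.85, 13.88 and 13.90 in the Cre minus arrays and 13.71, 13.80 and 13.83 in the Cre plus arrays. Uqcr11, another small subunit, had 10.71, 10.71 and 10.66 in the Cre minus arrays and 10.51, 10.66 and 10.65 in the Cre plus arrays. In each of these the highest Cre plus value lay just below the lowest Cre minus value, and the differences were -0.090, -0.093 and -0.089. Uqcrfs1, the Rieske iron-sulphur protein that moves the electron to cytochrome c1, and Uqcrq overlapped, with -0.10 and -0.094. The large core proteins differed in sign. Uqcrc1 had 10.04, 9.69 and 9.98 in the Cre minus arrays and 9.75, 9.85 and 9.76 in the Cre plus arrays, a difference of -0.12 ± 0.11. Uqcrc2 had 11.94, 11.96 and 11.86 in the Cre minus arrays and 11.88, 12.01 and 12.23 in the Cre plus arrays, a difference of 0.12 ± 0.10. Both overlapped between groups. Cre plus C was the highest array of Uqcrc2, and the difference was 0.024 when it was left out and 0.20 without Cre plus A.

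Complex IV, cytochrome c oxidase, had lower values in 9 of 9 members and the median nearest to 0 of the 5 complexes at -0.060, with none past the test. The groups did not overlap in 1 member (11.1%), beside 11.9% of all genes and 188 of the 1117 other genes with a mean above 10. Without Cre plus A, 6 of 9 were lower and the median was -0.026, and without Cre minus A, 8 of 9 were lower and the median was -0.037. Cox8a, a small subunit, had 8.78, 8.68 and 8.72 in the Cre minus arrays and 8.45, 8.61 and 8.63 in the Cre plus arrays. The groups did not overlap, and the difference was -0.16 ± 0.072 (adjusted p 0.361). Its second probe set gave -0.22. Cox4i1, the ubiquitous form of the regulatory subunit, had 12.47, 12.36 and 12.48 in the Cre minus arrays and 12.34, 12.38 and 12.39 in the Cre plus arrays. Cox6a1, whose promoter stretch is shown above, had 14.04, 13.91 and 14.04 in the Cre minus arrays and 13.90, 13.99 and 14.02 in the Cre plus arrays. Both overlapped, with differences of -0.069 and -0.030. Cox5a, Cox5b, Cox6b1, Cox6c and Cox7a2 had -0.060, -0.037, -0.061, -0.069 and -0.022, all with overlap. Without Cre plus A, Cox5b, Cox6a1 and Cox7a2 were 0.0125, 0.0053 and 0.011 higher in Cre plus instead. Cox7a2l gave -0.041 on its brightest probe set and 0.10 and 0.034 on the 2 others.

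The isoforms of complex IV known from other tissues stayed under the filter in all 6 arrays. Cox6a2, Cox7a1 and Cox8b, the heart and muscle forms, lay between 2.32 and 2.34, between 2.97 and 3.33, and between 2.81 and 2.83. Cox4i2, the lung form, lay between 2.04 and 2.06, and Cox6b2, Cox7b2 and Cox8c, known from testis, lay between 1.80 and 2.55. Muscle markers were also low, with 1 of 7 genes passing the filter. The remaining genes under the filter were Cox7c, Ndufa4l2, Ndufaf5, Ndufb1 and Ndufb4, and the highest value of any of the 12 was 3.98 for Ndufb1. A probe set at the bottom of this scale says only that it gave little signal over background. For Ndufb4, probe sets shared with its copies Ndufb4b and Ndufb4c were bright and gave -0.16 and -0.21, and a probe set shared by Ndufa11 and Ndufa11b gave -0.19. The other kept probe sets shared between genes gave -0.16 for Ndufs5 and Ndufs5-ps, -0.13 for Ndufs6 and Ndufs6b, -0.0012 for Ndufb2 and Adck2, and 0.023 for Ndufab1 and Ndufab1-ps. These name several genes and are not counted among the members.

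Complex V, the ATP synthase, had lower values in 15 of 17 members, with a median of -0.081 (-0.040 without Cre plus A and -0.050 without Cre minus A) and none past the test. The groups did not overlap in 2 members (11.8%), beside 11.9% of all genes and 188 of the 1117 other genes with a mean above 10. The catalytic F1 part was lower in 5 of 5, with a median of -0.072. That median was -0.13 when Cre plus C was left out, -0.030 without Cre minus A, and -0.040 with 4 of 5 lower without Cre plus A. Atp5a1, the alpha subunit, had 12.31, 12.08 and 12.16 in the Cre minus arrays and 12.05, 12.05 and 12.10 in the Cre plus arrays. Atp5b, the beta subunit that holds the active site, had 13.32, 13.18 and 13.22 in the Cre minus arrays and 13.18, 13.21 and 13.19 in the Cre plus arrays. Cre minus A was the highest array in both. Their differences were -0.12 ± 0.073 and -0.048 ± 0.059, and the groups overlapped in both. Atp5d, the delta subunit of the rotor stalk, had 11.19, 11.11 and 11.12 in the Cre minus arrays and 10.97, 10.998 and 11.10 in the Cre plus arrays, without overlap, and a difference of -0.12 ± 0.061 (adjusted p 0.425). Atp5c1 and Atp5e, the gamma and epsilon subunits, had -0.057 and -0.072.

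The membrane part and the stalks of the ATP synthase were lower in 10 of 12, with a median of -0.082 (and -0.045 without Cre plus A). Atp5o, which ties the F1 head to the outer stalk, had 11.33, 11.38 and 11.42 in the Cre minus arrays and 11.20, 11.32 and 11.29 in the Cre plus arrays, without overlap, and a difference of -0.11 ± 0.061 (adjusted p 0.467). Atp5k, Atp5l and Atp5j2, which encode the small membrane subunits e, g and f, had differences of -0.12 ± 0.094, -0.11 ± 0.066 and -0.11 ± 0.070. Atp5g1, Atp5g2 and Atp5g3 encode the same mature rotor subunit from separate genes, and their differences were 0.039, -0.047 and -0.038, all with overlap. Atp5g1 had 11.70, 11.60 and 11.63 in the Cre minus arrays and 11.67, 11.71 and 11.66 in the Cre plus arrays. Its difference was the highest of complex V. Atp5h, Atp5j, Atp5md and Atp5mpl had -0.081, -0.084, -0.037 and -0.11. Atp5pb, the stalk subunit b, had 0.015 on its brightest probe set and -0.081 on the other. Atpif1, the inhibitor of the ATP synthase when the membrane potential collapses, lay outside the symbol rule and had 8.06, 8.01 and 7.98 in the Cre minus arrays and 7.97, 8.13 and 8.05 in the Cre plus arrays, a difference of 0.031 ± 0.065.

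Probe sets of a gene did not always give the same direction. More than 1 probe set was kept for 42 of the 78 members, and those of 10 members had opposite signs (Ndufab1, Ndufs4, Ndufa12, Ndufb6, Ndufaf4, Ndufaf8, Cox5a, Cox5b, Cox7a2l and Atp5pb). All kept probe sets were lower in Cre plus for 63 members. Over all 139 kept probe sets of the members, 121 were lower.

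The arrays did not contribute equally. The mean of the members, as a log2 difference from the Cre minus mean, was 0.048, -0.029 and -0.018 in the Cre minus arrays A, B and C. In the Cre plus arrays A, B and C it was -0.15, -0.056 and -0.073. Every Cre plus array was thus below every Cre minus array on average, and Cre plus A was the lowest. Cre minus A was the highest of the 6 arrays in 45 members (57.7%), beside 2035 of all 8554 genes (23.8%), and Cre plus A was the lowest of the 6 in 49 (62.8%), beside 1580 (18.5%). The value lay below all Cre minus values in 67 of the 78 members in Cre plus A (85.9%), in 37 in Cre plus B (47.4%) and in 38 in Cre plus C (48.7%). Over all genes, this was so of 34.8%, 29.4% and 38.5%, so that Cre plus C was the array nearest to its background. In complex IV, the mean was -0.12, -0.052 and -0.016 in arrays A, B and C of Cre plus, so that Cre plus C lay within the Cre minus range of -0.038 to 0.047. In complex III, it was -0.14, -0.066 and -0.050, and Cre plus C again lay within the Cre minus range, which began at -0.053. In complex II, it was -0.18, -0.074 and -0.14. The neutrophil genes S100a8 and S100a9 were also set apart in Cre plus A, at 10.10 and 9.21 against 7.64 to 8.54 in the 5 other arrays, and the part of neutrophils in the members' values was not tested.

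**Figure D3:**
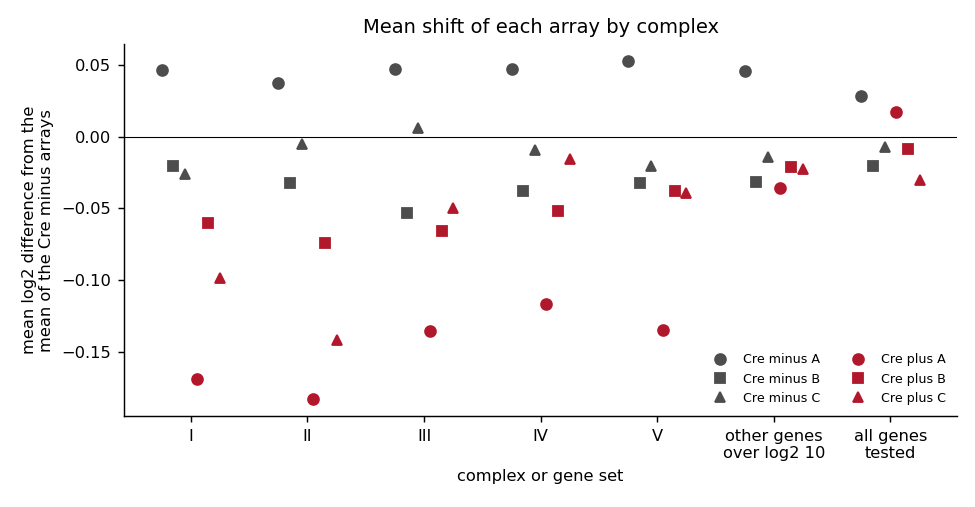
Mean log2 difference of each array from the mean of the 3 Cre minus arrays (vertical axis), over the members of each complex, over 1117 other genes with a mean above a log2 value of 10, and over all genes tested (horizontal axis). Grey symbols are Cre minus arrays and red symbols Cre plus arrays, with circles for A, squares for B and triangles for C. Cre plus A is the lowest array in each complex, at -0.12 to -0.18, but not among all genes tested.

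Members are bright on this array, so they were set beside other bright genes. A mean above 10 on the log2 scale was reached by 63 members, of which 58 were lower, with a median difference of -0.090. Of 1117 other genes above 10, 607 were lower and 510 higher, with a median of -0.014. The groups did not overlap, with Cre plus lower, in 17 of the 63 members and in 188 of the 1117 others. With Cre plus higher, this was so of 0 and 146. At an unadjusted limma p under 0.05, 4 of the 63 members were lower (6.35%), beside 156 of the others (14.0%). These other bright genes had a mean shift of 0.046 in Cre minus A, as the members had, but of -0.036, -0.021 and -0.022 in arrays A, B and C of Cre plus. Between 10 and 12, 37 of 41 members were lower, with a median of -0.10, beside 452 of 806 other genes with a median of -0.022. Between 12 and 14, 21 of 22 members were lower, with a median of -0.061, beside 132 of 253 others with a median of -0.0065. Between 8 and 10, the 9 of 10 members that were lower stood beside 1111 of 2058 others, with medians of -0.12 and -0.016. Values of different probe sets depend on their probes, so the order of brightness among the members is not an order of their transcripts.

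**Figure D4:**
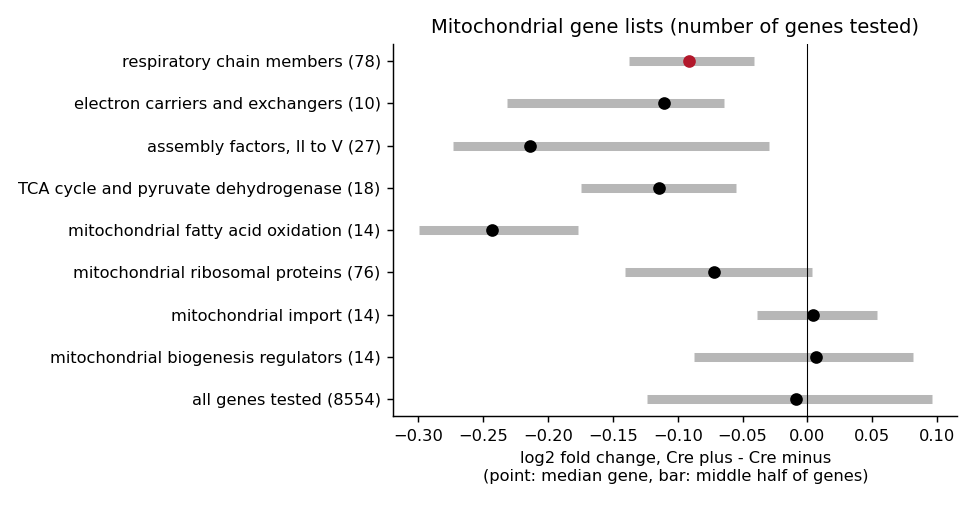
Log2 difference between Cre plus and Cre minus (horizontal axis) for lists of mitochondrial genes (vertical axis, with the number of genes tested), as the median gene (point) and the interquartile range (bar). The median lies at -0.091 for the members, at -0.24 for fatty acid oxidation, and near 0 for import proteins and biogenesis regulators. It lies at -0.21 for the assembly factors labelled II to V, a list that also names some of complex I.

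Other mitochondrial genes were described in the same way. Mitochondrial fatty acid oxidation, which feeds electrons to the chain, had lower values in 14 of 14 genes, with a median of -0.24, and its mean was -0.26, -0.24 and -0.27 in arrays A, B and C of Cre plus. Its Cre plus arrays thus lay close together, and without Cre plus A 14 of 14 were lower with a median of -0.26. Acadm, the medium-chain acyl-CoA dehydrogenase, had 11.85, 11.65 and 11.82 in the Cre minus arrays and 11.31, 11.28 and 11.35 in the Cre plus arrays, without overlap and with a difference of -0.46 ± 0.072 (adjusted p 0.0995). Eci1, which isomerises unsaturated intermediates, had a difference of -0.47 ± 0.12 (adjusted p 0.196). No gene of this or the following lists passed the test.

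A list of assembly factors outside the symbol rule, most of them for complexes II to V, had lower values in 21 of 27. Its median was -0.21 (and -0.20 without Cre plus A). The list also named Foxred1, Nubpl, Acad9, Ecsit and Timmdc1, which serve the assembly of complex I. It therefore does not describe complexes II to V alone. Sco2, which delivers copper to complex IV, had 8.86, 8.62 and 8.70 in the Cre minus arrays and 8.35, 8.20 and 8.39 in the Cre plus arrays, a difference of -0.41 ± 0.090 (adjusted p 0.168) without overlap. Sdhaf1, an assembly factor of complex II, had 7.90, 8.04 and 7.89 in the Cre minus arrays and 7.74, 7.47 and 7.31 in the Cre plus arrays, also without overlap, and a difference of -0.44 ± 0.12 (adjusted p 0.216). Electron carriers and exchangers outside the symbol rule were lower in 8 of 10, with a median of -0.11. Among them, Etfdh, which passes electrons from fatty acid oxidation to ubiquinone, had -0.23 ± 0.059 (adjusted p 0.196), and Gpd2, the glycerol phosphate dehydrogenase of the inner membrane, had -0.47 ± 0.13 (adjusted p 0.216). Cyc1, the cytochrome c1 of complex III, and Cycs, cytochrome c, had -0.11 and -0.095.

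The tricarboxylic acid cycle with pyruvate dehydrogenase had lower values in 15 of 18, with a median of -0.11 (and -0.076 without Cre minus A). Cs, citrate synthase, had -0.32 ± 0.092 (adjusted p 0.235), and Fh1, fumarate hydratase, went the other way with 0.34 ± 0.10 (adjusted p 0.25), each without overlap. Mitochondrial ribosomal proteins were lower in 56 of 76, with a median of -0.072. Without Cre minus A, 47 of 76 were lower, and without Cre plus C the median was -0.045. Mrpl34 had -0.52 ± 0.12 and Mrps16 -0.28 ± 0.074. Import proteins were lower in 6 of 14, with a median of 0.0041, which ran from -0.021 without Cre minus B to 0.046 without Cre plus B. Pmpcb, of the protease that removes import signals, had -0.19 ± 0.11, and Tomm20, an import receptor, had 0.21 ± 0.12. After each of the 3 other scalings of the arrays, the count of lower genes stayed within 1 of these values in every list of mitochondrial genes named here except the ribosomal proteins, with 51, 52 and 51 of 76.

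Regulators of mitochondrial biogenesis were lower in 7 of 14, with a median of 0.0066. The median was -0.0014 after quantile normalization and ran from -0.0088 without Cre minus C to 0.019 without Cre minus B. Pprc1, a coactivator related to PGC-1alpha, had 5.98, 6.02 and 5.98 in the Cre minus arrays and 6.41, 6.58 and 6.41 in the Cre plus arrays. All its Cre plus values lay above the Cre minus values, and the difference was 0.47 ± 0.067 (adjusted p 0.0883). Gabpa, the DNA-binding subunit of the factor whose core letters were searched above, had 7.67, 7.64 and 7.54 in the Cre minus arrays and 7.93, 7.81 and 7.96 in the Cre plus arrays, also without overlap, and a difference of 0.28 ± 0.069 (adjusted p 0.188). Sirt3, the main mitochondrial deacetylase, had -0.45 ± 0.14 (adjusted p 0.252), without overlap. Tfam, which packages and transcribes mitochondrial DNA, had -0.10 ± 0.11, and Ppargc1b, a coactivator, had -0.078 ± 0.13, both with overlap. Ppargc1a, Nrf1 and Esrra were not among the genes tested.

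Markers of the cell types that whole liver holds were read in the same arrays, and none passed the test. Kupffer cell and macrophage markers were lower in 11 of 11, with a median of -0.39, and the log2 of their summed signal was 12.06 to 12.19 in Cre minus and 11.62 to 11.92 in Cre plus. Endothelial markers were lower in 7 of 8 (median -0.20), with sums of 11.21 to 11.43 and 10.89 to 11.20. Stellate cell markers were lower in 3 of 8 (median 0.092), with sums of 11.13 to 11.20 and 11.18 to 11.52. Their median was -0.0031, with 4 of 8 lower, without Cre plus C, and 0.035 without Cre plus A or without Cre minus B. Hepatocyte markers were lower in 5 of 7 (median -0.051), with a median of -0.020 without Cre plus A, -0.028 without Cre minus A and -0.078 without Cre plus C. Of the cholangiocyte markers 1 of 5 passed the filter, and Krt7 and Krt19 did not. Of the lymphocyte and neutrophil markers 2 of 8 did, and Cd3e and Cd79a did not. Of the brown fat markers 0 of 2 passed. Ucp1 had 5.26 and Cidea 4.13 in Cre plus C, against 3.60 to 3.61 and 2.04 to 2.06 in the 5 other arrays. The part of these cell types in the members' values was not tested.

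**Figure D5:**
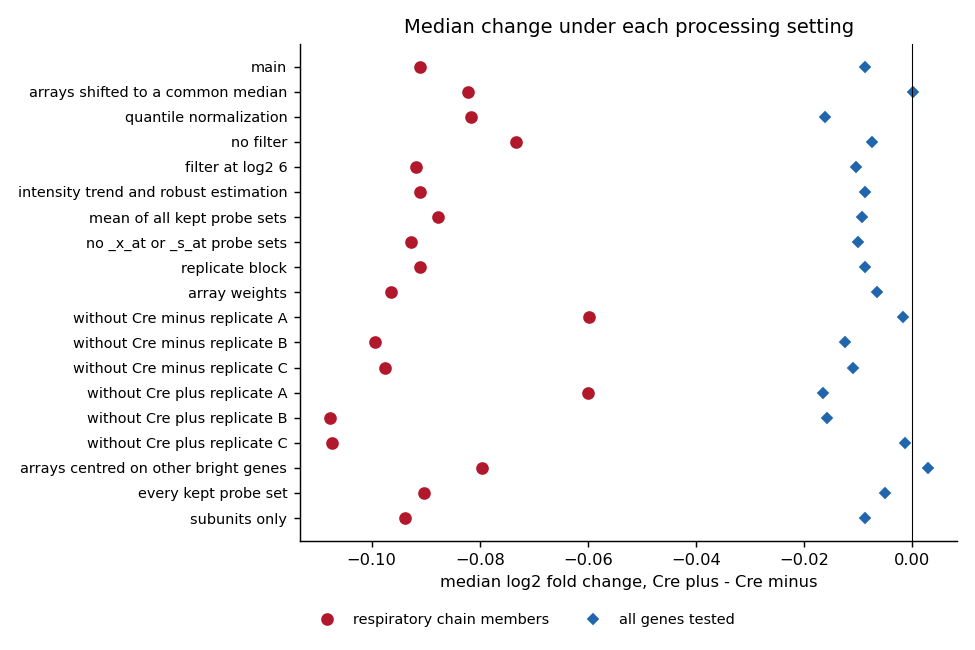
Median log2 difference between Cre plus and Cre minus (horizontal axis) of the members (red circles) and of all genes tested (blue diamonds) under each processing setting (vertical axis). The members' median lies between -0.11 and -0.060 in all settings shown and is nearest to 0 without Cre minus A and without Cre plus A.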

How the data were processed

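Whole liver RNA was hybridised to Affymetrix Mouse Genome expression arrays with 2 ug of total RNA each, per the labels. The authors deposited log2 values made with GCRMA, per the submitters' processing notes, which corrects background by probe sequence, normalizes between arrays and summarises each probe set. The sources used here do not give its version. Fold changes of dim probe sets are compressed on this scale. Arrays have no read depth, and their number limits the precision.

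Of 45101 probe sets, 64 were controls and left out. The platform annotation gave 34958 probe sets 1 symbol, 932 several and 9211 none, and only the first were named. Probe sets over 4 in at least 3 arrays were kept (15563 of any kind), and each gene was read from its brightest kept single-symbol probe set (8554 genes). The genotypes were compared by limma 3.58.1 in R 4.3.3 (lmFit and eBayes, no block, two-sided, Benjamini-Hochberg adjustment over all genes), tested on simulated data. With 3 arrays against 3, an exact permutation test cannot give a p under 0.1. Differences are the Cre plus mean less the Cre minus mean, given with the standard error of the fit.

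Values were described in full for complex II, for the members of smallest p and of the highest and lowest difference in each complex, for tissue isoforms, and for up to 2 genes of each other list by smallest p. Further members were given so that each is accounted for. The members and lists were chosen with earlier results of these data known. Alternatives covered normalization, the filter, the choice of probe set, the fit and each array left out.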

Additional observations from a re-analysis of the deposited data

How the results depend on the processing

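No member passed an adjusted p under 0.05 in limma under any alternative run, and the median difference of the members and of each complex was below 0 in all of them. The complex II median moved to -0.064 when every kept probe set was counted. Over all genes, 0 passed with no filter, 56 with a filter at a log2 value over 6, 0 with a replicate block by array letter, and 0 to 13 with single arrays left out. Members lower at an unadjusted p under 0.05 numbered 14 with no filter (of 90), 4 with the replicate block, 11 with array weights, 14 with every kept probe set (of 139), and 3 to 14 with single arrays left out. Shares of all genes at that p were not computed for these fits, so the counts are not a result about the members. With no filter, 80 of the 90 members were lower, beside 69.5% of all 18193 genes. The deviations of same-lettered arrays from their group means correlated at -0.15, -0.10 and 0.019 for A, B and C, and no array correlated best with its own letter, so the letters were not taken as pairs. Some single genes changed sign. Without probe sets of the cross-matching kinds, Ndufab1 became 0.017 and Cox7a2l 0.10. As means of their probe sets, Cox7a2l became 0.032 and Tfam 0.014. With single arrays left out, Cox5b ran from -0.066 to 0.0125, Cox7a2 from -0.055 to 0.011, Cox6a1 from -0.073 to 0.0053 and Ppargc1b from -0.21 to 0.015, each highest without Cre plus A. In the same way Cox7a2l ran from -0.098 to 0.050 (highest without Cre plus B, and 0.023 without Cre minus A), and Atpif1 from -0.010 (without Cre plus B) to 0.072. The cause was not tested, except that leaving out an array leaves fewer samples and the filter sets how many genes are adjusted for. Centring the arrays on other bright genes was chosen after seeing the data.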
